A study of Mus musculus with 9 samples.

Results

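The 4 microRNA host transcripts, Mir17hg, Mir22hg, Mir100hg and Dleu2, were followed in mouse SV40-MES-13 cells with reduced Drosha. They are long RNAs from which the hairpins of several microRNA families are cut, and they were taken by gene name from all 5 libraries of the deposited expression table, which holds 55357 genes. Of the 4 transcripts, 3 carry their symbol in that table (Mir22hg ENSMUSG00000085148, Mir100hg ENSMUSG00000074415 and Dleu2 ENSMUSG00000097589). The Mir17hg row has no symbol there and was taken by its identifier, ENSMUSG00000089726, which a mouse reference table pairs with that name.

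The study asks what Drosha does in mesangial cells, the contractile support cells of the kidney glomerulus. The control cells were SV40-MES-13 cells with an empty vector (EV, n = 2 libraries). The knockdown cells were the same line infected with pLL 3.7 lentivirus carrying an shRNA against Drosha, either sh5 (n = 1) or sh7 (n = 2). Controls and knockdown cells alike carry the SV40 early genes that immortalised the line. The titles of the shRNA libraries say knockout, but the protocol describes knockdown. Whether replicates were separate cultures is not stated, so each p-value speaks only for the spread among these libraries, and that spread may be technical. The 4 small RNA samples of the series were not analysed here, so no mature microRNA level is given.

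A microRNA begins as a hairpin inside a long RNA polymerase II transcript. In the nucleus the Microprocessor, made of the RNase Drosha and its RNA-binding partner Dgcr8, cuts the hairpin out, and Dicer later trims it to the mature microRNA. The remains of a cut host transcript are degraded or spliced, depending on where the hairpin lies. Libraries made from poly(A) RNA, as here, are meant to read the host transcript and not the cut-out hairpin or the mature microRNA. Mir17hg carries the miR-17 cluster, known as an oncogenic cluster driven by Myc. Mir22hg carries miR-22, and Mir100hg carries miR-100, let-7a and miR-125b. Dleu2 was named for a region deleted in human lymphocytic leukaemia and carries miR-15a and miR-16, which restrain the cell cycle.

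The mature sequences show what each host yields. Of 12 mature microRNAs sought, 11 were found in RefSeq sequences on GRCm38.p6, and let-7a from Mir100hg is named only. Each is written 5′ to 3′ with the seed, bases 2 to 8, in capitals, since the seed sets which messages a microRNA pairs with. The Mir17hg cluster gives the first 6, Mir22hg gives miR-22, Mir100hg gives miR-100 and miR-125b, and Dleu2 gives miR-15a and miR-16.
mmu-miR-17-5p: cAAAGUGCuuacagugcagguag
mmu-miR-18a-5p: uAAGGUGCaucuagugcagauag
mmu-miR-19a-3p: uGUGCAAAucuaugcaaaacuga
mmu-miR-20a-5p: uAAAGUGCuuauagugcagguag
mmu-miR-19b-3p: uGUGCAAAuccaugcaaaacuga
mmu-miR-92a-3p: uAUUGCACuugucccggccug
mmu-miR-22-3p: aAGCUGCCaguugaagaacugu
mmu-miR-100-5p: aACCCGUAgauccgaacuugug
mmu-miR-125b-5p: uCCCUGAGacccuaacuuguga
mmu-miR-15a-5p: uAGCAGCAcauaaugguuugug
mmu-miR-16-5p: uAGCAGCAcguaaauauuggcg
The 11 microRNAs have 8 distinct seeds, and 3 of these seeds are shared. AAAGUGC is the seed of miR-17 and miR-20a, GUGCAAA that of miR-19a and miR-19b, and AGCAGCA that of miR-15a and miR-16. No seed is shared between different hosts. The clusters differ in size: from the first to the last mature base the Mir17hg cluster spans 813 bases of chromosome 14, the Dleu2 cluster 203 bases of chromosome 14 on the minus strand, and the Mir100hg cluster 50565 bases of chromosome 9.

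The Mir22 hairpin is printed because its host had the largest difference of the 4. It lies at chr11:75463716-75463810 on the plus strand of GRCm38.p6, inside the annotated span of Mir22hg, and the capitals mark its mature arms.
Mir22: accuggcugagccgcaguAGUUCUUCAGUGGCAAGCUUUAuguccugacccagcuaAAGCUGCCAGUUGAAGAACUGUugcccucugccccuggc
The region around the annotated start of Mir17hg is printed because it bears on what a read assigned to that row can come from. It covers 250 bases before the start and 50 bases from it, chr14:115044140-115044439 on the plus strand of GRCm38.p6, and the capitals mark mature microRNA bases.
Mir17hg: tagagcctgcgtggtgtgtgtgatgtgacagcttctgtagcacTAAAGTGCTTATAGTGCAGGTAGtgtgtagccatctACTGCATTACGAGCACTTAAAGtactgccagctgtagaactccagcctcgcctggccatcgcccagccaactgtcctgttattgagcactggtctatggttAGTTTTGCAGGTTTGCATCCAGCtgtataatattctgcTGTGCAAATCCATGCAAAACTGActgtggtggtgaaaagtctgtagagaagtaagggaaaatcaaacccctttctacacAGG
This window holds 4 whole mature microRNAs, the arms of miR-20a and miR-19b-1, and its last 3 bases are the first of miR-92a-1-5p. Only 1 of the 6 hairpins, Mir92-1, lies inside the annotated span of Mir17hg in RefSeq, and Mir19b-1 lies partly inside. The other 3 hosts contain all of their hairpins. The annotation behind the deposited values is not given in the sources used here, so whether the same holds for the Mir17hg row in the TPM table was not tested.

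Values are TPM, an abundance per unit of transcript length that is scaled to 1000000 in each library, and TPM keep no sequencing depth, so the depth of each library is unknown. The libraries had 20280 to 22045 genes above 0. EV replicate 1 stood apart: across the 12728 tested genes, those averaging 1 TPM or more, it correlated with EV replicate 2 at r = 0.968, below the r of 0.982 between EV replicate 2 and sh5. Defining mesangial and pericyte markers were near 0, with 0 of 8 at 1 TPM or more in every library and a summed level of 0.891 to 1.76 TPM. Markers of kidney tubule summed to 129 to 155 TPM, nearly all of it Cdh16. Podocyte markers summed to 5.31 to 6.05 TPM, leukocyte markers to 6.64 to 8.35 TPM and endothelial markers to 0.569 to 1.71 TPM. The defining mesangial markers were thus close to absent in cells labelled mesangial.

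Drosha itself was at 60.03 and 56.4 TPM in EV, 36.0 TPM under sh5 and 8.39 and 14.9 TPM under sh7. It lay below both EV libraries in all knockdown libraries, and lowest in sh7. The shRNA targets, as the protocol gives them, are these.
sh5: cctggaatatgtccacacttt
sh7: gtgtgcccattgaaataaa
Differences were tested with limma on log2(TPM + 1), a scale that understates the change of low genes, with p-values adjusted over the 12728 genes. The log2 difference of Drosha in sh7 was -2.27 (SE 0.266, adjusted p = 0.109).

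Under sh7, all 4 hosts lay above both EV libraries, and Mir22hg was the only one of them to pass the threshold of 0.05. Mir22hg was at 4.55 and 4.46 TPM in EV and at 42.0 and 38.4 TPM under sh7. The EV values were nearly equal and far below both sh7 values. Its mean rose from 4.51 ± 0.0606 TPM (SD, n = 2) to 40.15 ± 2.54 TPM (SD, n = 2), which is 8.91-fold. The log2 difference was 2.90 (SE 0.143, 95% interval 2.53 to 3.27), with an adjusted p of 0.0456 by limma. The call was lost in 9 of 16 alternatives, among them pseudocounts of 0.1 (adjusted p = 0.0598) and 0.5 (0.0510), no filter (0.128), median-of-ratios scaling (0.0623), quantile normalization (0.0541) and the loss of EV replicate 1 (0.114) or of either sh7 library. Those 16 count the fit without sh5 and the fit of only the groups compared separately, although for this comparison they are identical. By size of difference Mir22hg ranked 35 of 12728 tested genes from the top. In bulk RNA, more transcript per cell and more cells with the transcript cannot be told apart.

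Dleu2 was at 4.71 and 6.36 TPM in EV and at 18.6 and 22.1 TPM under sh7. The groups did not overlap, and their means were 5.54 ± 1.16 TPM and 20.3 ± 2.45 TPM (SD, n = 2 each), a ratio of 3.67. Its log2 difference was 1.71 (SE 0.199, 95% interval 1.20 to 2.23), and it did not pass, with an adjusted p of 0.109 by limma.

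Mir17hg was at 2.24 and 2.30 TPM in EV and at 7.06 and 10.6 TPM under sh7. The EV libraries were within a ratio of 1.03 of each other, whereas the sh7 libraries differed by 1.51-fold. The ratio of the means, 8.85 ± 2.54 TPM under sh7 against 2.27 ± 0.0433 TPM in EV (SD, n = 2 each), was 3.89. The log2 difference was 1.57 (SE 0.255, 95% interval 0.90 to 2.23, adjusted p = 0.185 by limma).

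Mir100hg was the least even of the 4 in EV, at 1.36 and 3.79 TPM, and it was at 9.36 and 6.84 TPM under sh7. Its EV libraries differed by 2.79-fold, the low value being that of EV replicate 1, but both sh7 values were above both. The ratio of the means, 8.10 ± 1.78 TPM under sh7 against 2.57 ± 1.72 TPM in EV (SD, n = 2 each), was 3.15. The log2 difference was 1.42 (SE 0.399, 95% interval 0.39 to 2.46, adjusted p = 0.278 by limma).

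**Figure D1:**
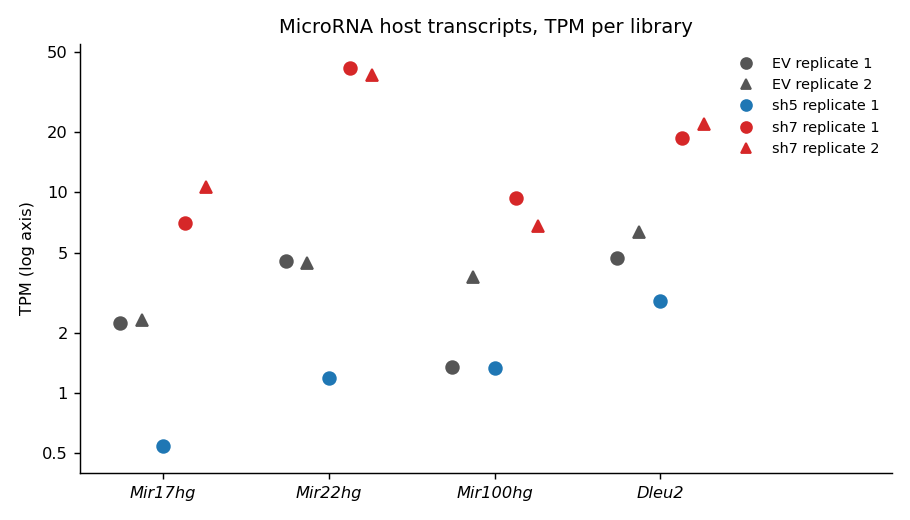
TPM of Mir17hg, Mir22hg, Mir100hg and Dleu2 in each of the 5 libraries on a log axis, with 1 point per library, coloured by group and shaped by replicate. The sh7 points lie above the EV points for every host and the sh5 point below them, by the least for Mir100hg (1.34 against 1.36 TPM).

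Of all tested genes, 2 were called higher in sh7, which is 0.0157%, and the 1 member called was Mir22hg. The other was Dgcr8, the partner of Drosha, whose own messenger RNA carries hairpins that the Microprocessor cuts. At an unadjusted p under 0.05 the members were 4 of 4 higher, against 10.3% of all tested genes, and 0 of 4 lower, against 4.15%. Both sh7 libraries lay above both EV libraries for 4 of 4 members and for 35.8% of tested genes. The median log2 difference was 1.64 over the 4 members and 0.09 over all tested genes. A difference of at least 1 log2 unit was found for 4 of 4 members and for 2.82% of tested genes. The members were chosen with earlier results of these data known, so these shares are a description and not a test.

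The sh5 library showed the other sign. Mir22hg was at 1.20 TPM under sh5, or 26.5% of its EV mean, and Mir17hg at 0.545 TPM, or 24.0%. Dleu2 was at 2.89 TPM and Mir100hg at 1.34 TPM, which are 52.1% and 51.9% of their EV means. All 4 lay below both EV libraries, Mir100hg by a margin of 1.34 against 1.36 TPM. Being below both EV libraries was common in sh5, where it held for 43.7% of tested genes.

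By limma none of the 4 passed for sh5, where 1 library was assumed to vary like the others. The log2 difference was -1.33 for Mir22hg (SE 0.175, 95% interval -1.78 to -0.87, adjusted p = 0.376) and -1.08 for Mir17hg (SE 0.313, 95% interval -1.89 to -0.27, adjusted p = 0.485). It was -0.74 for Dleu2 (SE 0.243, adjusted p = 0.501) and -0.52 for Mir100hg (SE 0.488, 95% interval -1.79 to 0.74, adjusted p = 0.728). No gene at all passed in this comparison, 0 of 12728. At an unadjusted p under 0.05 it had 1013 lower genes, 7.96% of those tested, among them 3 of the 4 members. The comparisons of sh7 and sh5 with EV share the EV libraries. Lying above both EV libraries in sh7 and below both in sh5 held for 4 of 4 members and for 14% of tested genes.

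**Figure D2:**
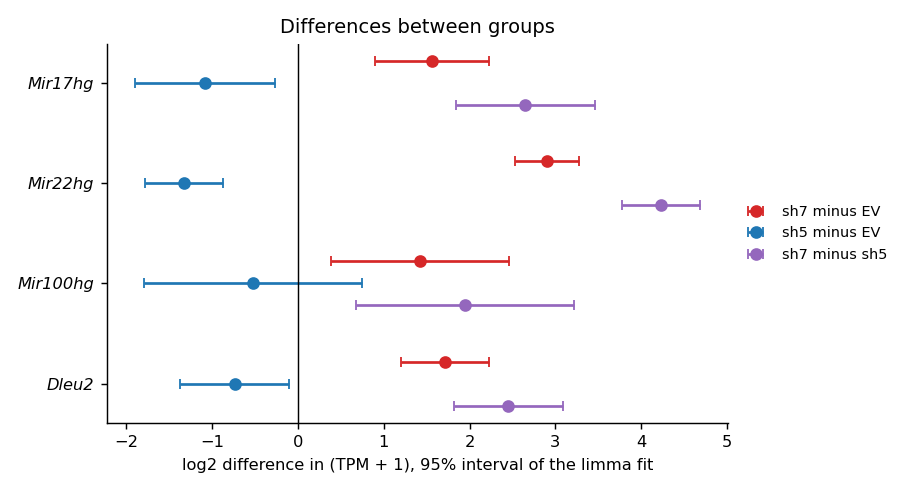
Log2 differences of each host transcript for sh7 against EV, sh5 against EV and sh7 against sh5, on log2(TPM + 1), with 95% intervals as bars. The sh7 differences are 1.42 to 2.90 and the sh5 differences -1.33 to -0.52, and the sh5 interval of Mir100hg includes 0.

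Set directly against sh5, all 4 hosts were higher in sh7, and 1 of them passed. Mir22hg rose by 4.23 log2 units (SE 0.175, 95% interval 3.77 to 4.68, adjusted p = 0.0198 by limma), 33.6-fold in TPM. This call was lost in 4 of 14 alternatives, among them eBayes without trend (adjusted p = 0.0529) and the fits with a single sh7 library, where the adjusted p was 0.417 without sh7 replicate 1 and 0.577 without sh7 replicate 2. For this comparison 2 genes were called higher, 0.0157% of those tested, and Mir22hg and Dgcr8 were those genes. The log2 differences of the others were 2.65 for Mir17hg (SE 0.313, adjusted p = 0.115), 2.45 for Dleu2 (SE 0.243, adjusted p = 0.115) and 1.95 for Mir100hg (SE 0.488, adjusted p = 0.150). In TPM the ratios were 16.2, 7.05 and 6.07. At an unadjusted p under 0.05, 4 of 4 members were higher, against 17.1% of tested genes, and 0 of 4 lower, against 3.56%. Both sh7 libraries lay above sh5 for 58.5% of tested genes.

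Drosha and the hosts did not run in step across the constructs. Against EV, Drosha was at 61.8% of the EV mean in sh5 and 0.2003 times it in sh7, and the hosts were at 24.0% to 52.1% in sh5 but above EV in sh7. Dgcr8 was at 26.7 and 26.3 TPM in EV, 24.3 TPM under sh5 and 171 and 161 TPM under sh7. Its sh5 level was therefore 91.7% of the EV mean, whereas that of Mir22hg was 26.5%. Within sh7, replicate 1 had the lower Drosha (8.39 against 14.9 TPM) and the higher Mir22hg and Mir100hg, but the lower Mir17hg and Dleu2.

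**Figure D3:**
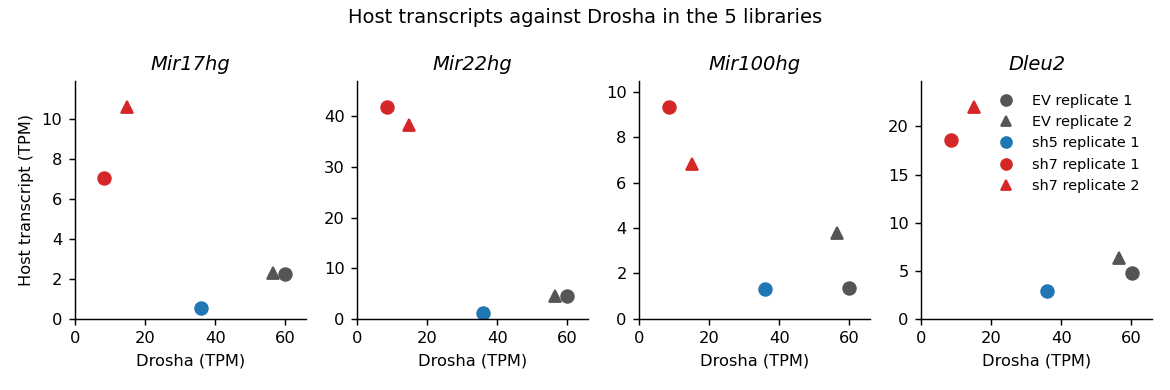
TPM of each host transcript plotted against TPM of Drosha in the same library, with 1 point per library, linear axes from 0 and groups by colour. The hosts are lowest in the sh5 library, at 36.0 TPM of Drosha, and highest in the sh7 libraries, at 8.39 and 14.9 TPM.

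The order of the 4 levels differed between groups. In EV the means ran from Dleu2 (5.54 TPM) through Mir22hg (4.51 TPM) and Mir100hg (2.57 TPM) to Mir17hg (2.27 TPM). The EV values of Mir100hg, 1.36 and 3.79 TPM, enclosed those of Mir17hg, and Mir22hg at 4.55 and 4.46 TPM was close to the lower Dleu2 value of 4.71 TPM. In sh7 Mir22hg led in both libraries, at 2.26 and 1.74 times the level of Dleu2, whereas it was at 0.966 and 0.702 times that level in EV and 0.414 times in sh5. Mir17hg and Mir100hg overlapped in sh7. The sum over the 4 hosts was 12.9 and 16.9 TPM in EV, 5.96 TPM under sh5 and 76.97 and 77.9 TPM under sh7.

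Leaving out libraries moved Mir100hg most. Without EV replicate 1 its sh7 difference was 0.91 log2 units and without EV replicate 2 it was 1.94. Its sh5 difference was -1.04 without EV replicate 1 and -0.01 without EV replicate 2. Mir22hg stayed within 2.84 to 2.96 log2 units for sh7 whichever library was left out, but its adjusted p was 0.114 when EV replicate 1 was dropped and 0.525 and 0.484 when sh7 replicates 1 and 2 were. Dleu2 ranged from 1.53 to 1.90 and passed without EV replicate 2 (1.90, adjusted p = 0.0377). The fit without EV replicate 2 keeps only EV replicate 1 as control, the library that stood apart. The number of genes called in sh7 depended on which EV or sh7 library was left out. The sign of each of the 4 hosts was kept whichever library was left out.

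**Figure D4:**
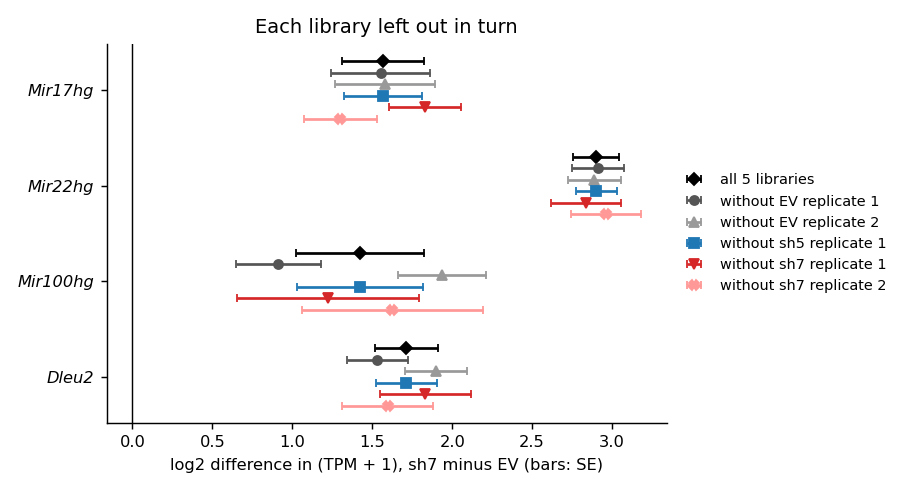
Log2 difference of each host transcript for sh7 against EV, on log2(TPM + 1), with all libraries and with each library left out in turn, with standard errors as bars. Mir22hg stays between 2.84 and 2.96, and Mir100hg spans 0.91 to 1.94.

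The genes with the most similar profile over the 5 libraries were named by the distance of their log2(TPM + 1) values, relative to the EV mean, as a root mean square. Predicted Gm and Rik models, genes without a symbol and pseudogenes were left out of this search. Mir17hg and Dleu2 were each other's nearest gene among the tested genes searched, at 0.230 log2 units. The nearest gene to Mir100hg was Spaca6 at 0.230, a protein-coding gene that hosts miR-99b, let-7e and miR-125a, of which miR-99b and miR-125a share the seeds of miR-100 and miR-125b. Spaca6 was at 2.63 and 6.09 TPM in EV, 3.48 TPM under sh5 and 12.3 and 8.61 TPM under sh7, and its log2 difference for sh7 was 1.16 (SE 0.380, adjusted p = 0.314). EV replicate 1 was the low EV library for both genes. The nearest gene to Mir22hg was Dgcr8, at 0.572, so no gene searched was as near to Mir22hg as those of the others were to them.

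Other near genes were of other kinds. Samd9l, an interferon-induced growth regulator, was neighbour 3 of Mir100hg (0.282), at 24.5 and 47.0 TPM in EV, 20.4 TPM under sh5 and 70.3 and 81.2 TPM under sh7. Ifit2, an interferon-induced antiviral gene, was the next nearest to Dleu2 after Mir17hg (0.355), at 16.5 and 38.5 TPM in EV, 21.3 TPM under sh5 and 93.0 and 92.5 TPM under sh7. Whether an interferon response has a part in the host levels was not tested. Gabbr1, a subunit of the GABA-B receptor, was neighbour 3 of Mir17hg (0.341). The hairpin rows Mir8091, Mir343, Mir7679 and Mir27a were also among the first 3 of a member. Of these, Mir343, Mir7679 and Mir27a entered the search only because of their sh7 values. Their nearness to hosts that are high in sh7 was therefore partly set by the filter. Mir27a was listed at 0 in EV and under sh5 and was at 6.31 and 8.30 TPM under sh7.

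The hairpins themselves have rows of their own in the table. Of the 12 hairpins carried by the 4 hosts, 11 were listed at 0 in all 5 libraries. The exception was Mir15a of Dleu2, listed at 0 in EV and under sh5 and at 3.22 and 1.61 TPM under sh7. TPM of such short features are sensitive to few reads.

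Genes next to the hosts served as a comparison of the neighbourhood. Of 16 flanking genes, 15 were in the table and 4 were tested, of which 0 passed by limma and 1, Trim13, had an unadjusted p under 0.05. Beside Mir22hg, Prpf8, a core splicing factor, was at 138 and 139 TPM in EV and 118 and 123 TPM under sh7 (log2 difference -0.20, SE 0.0764, adjusted p = 0.346). Wdr81, an endosomal protein gene, was at 14.4 and 19.4 TPM in EV and 24.0 and 20.03 TPM under sh7 (0.37, SE 0.189, adjusted p = 0.421). Tlcd2 was at 1.98 and 1.20 TPM in EV and 2.63 and 3.26 TPM under sh7 (0.62, SE 0.274, adjusted p = 0.377). At 1.13 TPM under sh5, Tlcd2 had the direction of the hosts with both constructs, as 14% of tested genes did. Wdr81 also lay above both EV libraries in sh7, but its sh5 value, 20.2 TPM, was above both too. Prpf8 lay below both in sh7. The log2 differences of Prpf8, Wdr81 and Tlcd2 were all well under the 2.90 of Mir22hg.

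Trim13, a ubiquitin ligase gene, overlaps Dleu2 on the opposite strand. It was at 9.61 and 7.38 TPM in EV, 8.004 TPM under sh5 and 5.17 and 5.86 TPM under sh7, and the sh7 values lay below both EV values (log2 difference -0.54, SE 0.192, adjusted p = 0.333). Whether the counting used strand is not given in the sources used here, so reads of Trim13 and Dleu2 may not have been told apart, and both values are uncertain to that extent. The flanking genes of Mir17hg were listed at 0 in all libraries. Ubash3b, beside Mir100hg, was too low to be tested. It was at 0.347 and 0.198 TPM in EV, 0.125 TPM under sh5 and 0.553 and 0.714 TPM under sh7. It thus lay above both EV libraries in sh7 and below both in sh5, as the hosts and 14% of tested genes did. On the same side, 1700063D05Rik was at 0.156 and 0.524 TPM in EV and overlapped them under sh7, at 0.492 and 0.226 TPM.

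Among other transcripts listed by name as microRNA hosts, those tested had smaller differences under sh7 than the 4 members. Some noncoding hosts from outside this list were far higher under sh7 than in EV, and their levels are given under Other observations. Of 18 further noncoding hosts listed by name, 13 were in the table and only Ftx was tested, with a log2 difference of 0.71 for sh7 (SE 0.225, adjusted p = 0.302). Ftx, a noncoding regulator of X inactivation, was at 1.59 and 1.94 TPM in EV, 1.43 TPM under sh5 and 3.32 and 3.75 TPM under sh7. Mir155hg, host of miR-155, was too low to be tested, with 0.638 and 0.773 TPM in EV, listed at 0 under sh5 and at 1.51 and 1.70 TPM under sh7. Of the 13, 4 were listed at 0 throughout. Of 32 protein-coding genes listed by name as having intronic microRNAs, 27 were tested. For sh7 these were 16 higher and 11 lower with a median of 0.06 log2 units, and 0 passed. Both sh7 libraries lay above both EV libraries for 11 of these 27, 40.7% against 35.8% of all tested genes. The highest log2 differences were 0.39 for Pank2, which encodes an enzyme of coenzyme A synthesis, 0.35 for Copz2, a coatomer subunit gene, and 0.34 for Dnm1, a dynamin gene. The reference table gave no microRNA on the same strand within Dnm1 or Dnm2, so their place in this list is not borne out there. The lowest were -0.44 for the transcription factor subunit gene Nfyc, -0.20 for Evl, an actin regulator, and -0.17 for the ubiquitin ligase gene Huwe1. In sh5, 18 of the 27 (66.7%) lay below both EV libraries, with a median of -0.24. Over all tested genes that share was 43.7% and the median was -0.05.

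Genes that carry a microRNA with the same seed elsewhere in the genome were among them. Mcm7, a DNA replication helicase subunit that hosts miR-93 and miR-106b with the seed of miR-17, was at 373 and 338 TPM in EV, 348 TPM under sh5 and 459 and 434 TPM under sh7 (log2 difference 0.33). Smc4, a condensin subunit gene, is known as the host of miR-15b and another copy of miR-16, but it came from the list of hosts by name, and the reference table gave no host for those loci. It was at 153 and 139 TPM in EV, 63.3 TPM under sh5 and 165 and 177 TPM under sh7 (log2 difference 0.22). Both differences were smaller than those of the noncoding hosts with the same seeds, 1.57 for Mir17hg and 1.71 for Dleu2. From outside the list by name, Spaca6, with the seeds of miR-100 and miR-125b, had 1.16, against 1.42 for Mir100hg. Tmem245, host of miR-32 with the seed of miR-92a, had 0.11. The difference between these differences was not tested.

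**Figure D5:**
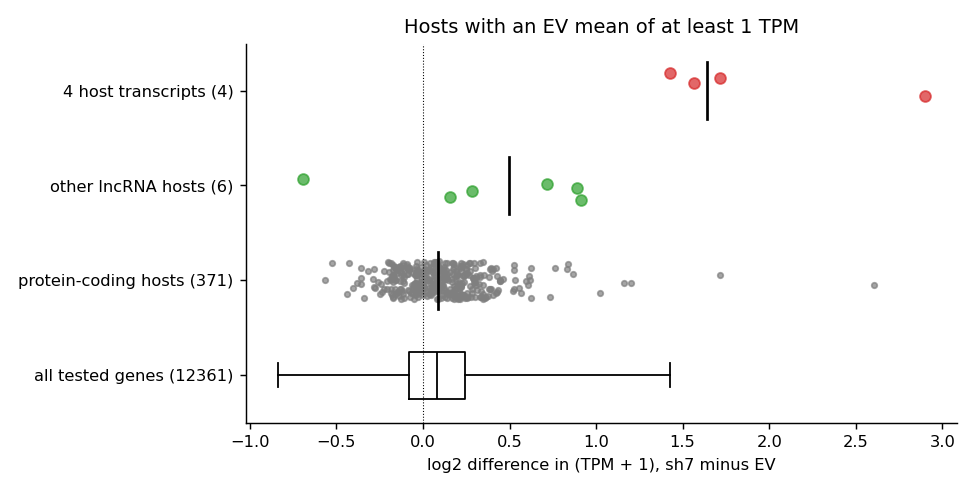
Log2 differences for sh7 against EV, on log2(TPM + 1), of the 4 host transcripts, of other genes that carry a microRNA in the reference table, and of all tested genes, all with an EV mean of at least 1 TPM; the box and whiskers (quartiles, and percentiles 1 and 99) are for all tested genes, points are single genes and black lines medians. The 4 hosts lie at 1.42 to 2.90, and the median of all such tested genes is 0.08.

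Hosts were also taken from the RefSeq table, after values had been seen, as genes whose annotated span holds a microRNA locus on the same strand. With an EV mean of at least 1 TPM, 6 other long noncoding hosts remained, with a median log2 difference of 0.50 for sh7, and 5 were higher and 1 lower. Among protein-coding hosts 371 remained, with a median of 0.09, which is close to the 0.08 of all 12361 tested genes with that EV mean. A difference of at least 1 log2 unit was reached by 5 of the 371 (1.35%), against 1.86% of all such genes. These 5 were Dgcr8, Rnf213, Aopep, Spaca6 and Slfn9. Aopep, an aminopeptidase gene that hosts miR-23b, miR-27b and miR-24-1, was at 13.7 and 16.7 TPM in EV, 16.2 TPM under sh5 and 36.3 and 35.8 TPM under sh7 (log2 difference 1.20, SE 0.135, adjusted p = 0.109).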

How the data were processed

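Poly(A)-selected RNA was profiled in 5 libraries of SV40-MES-13 cells. The authors deposited TPM per Ensembl gene, and every library sums to 1000000. Per the submitters' processing notes the tool was kallisto 0.48.0. The sources used here give no genome build or annotation and do not say how transcripts were combined into genes. TPM keep no depth, so no counting error was derived, and an exact 0 is given as listed at 0. Symbols came from the deposited table, and of 22339 genes without one, 19991 were named from a mouse reference table, Mir17hg among them.

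Differences were tested two-sided in R 4.3.3 with limma 3.58.1 (lmFit, eBayes with trend) on log2(TPM + 1), for the 12728 genes that averaged 1 TPM or more across the libraries. All 4 hosts passed this filter also by their EV mean. The model had 3 groups, leaving 2 residual degrees of freedom, and in it the lone sh5 library is assumed to vary like the others, with Benjamini-Hochberg adjustment over all tested genes and a threshold of 0.05. The procedure was tested on simulated data.

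The members and lists were chosen with earlier results of these data known. The rule named the 4 hosts, Drosha, Dgcr8, the hosted hairpins, the flanking genes, the 3 highest and 3 lowest genes of each host list with any past 1 log2 unit, and the 3 tested genes of nearest profile, predicted models and pseudogenes aside. Hosts from the RefSeq table, with same-seed hosts, were added after seeing the data. Alternatives tried were pseudocounts of 0.1 and 0.5, no filter or a mean of at least 5 TPM, median-of-ratios scaling, quantile normalization, eBayes without trend or with robust estimation, rescaling after removal of mitochondrial and the top 20 genes, the replicate number as a block, a fit of only the groups compared, and each library left out in turn.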

Additional observations from a re-analysis of the deposited data

Results flagged for a closer look

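For each of the 4 hosts the sh5 library lay below both EV libraries and both sh7 libraries lay above them, so that the constructs differed in sign against the same controls. The difference itself, sh7 minus sh5 by limma on log2(TPM + 1), was 4.23 for Mir22hg (adjusted p = 0.0198), which passed the threshold but not with eBayes without trend (0.0529), without sh7 replicate 1 (0.417) or without sh7 replicate 2 (0.577). It was 2.65 for Mir17hg (adjusted p = 0.115), 2.45 for Dleu2 (adjusted p = 0.115) and 1.95 for Mir100hg (adjusted p = 0.150), which did not. The sh5 value rests on 1 library, and both sh7 libraries lay above it for 4 of 4 hosts and for 58.5% of tested genes.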

How the results depend on the processing

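The sign of each host's difference was kept under every alternative run, with 0 reversals. Mir22hg in sh7 against EV lost its call with a pseudocount of 0.1 (3.13, adjusted p = 0.0598) or 0.5 (3.02, 0.0510), with no filter (2.90, 0.128), under median-of-ratios scaling (2.80, 0.0623), under quantile normalization (2.78, 0.0541) and with the replicate number as a block (2.90, 0.0944), and also without EV replicate 1 (0.114), sh7 replicate 1 (0.525) or sh7 replicate 2 (0.484), while leaving out a library gave 2.84 to 2.96. Against sh5 it lost its call without trend (4.23, 0.0529) and with the block (4.26, 0.0967), and also without sh7 replicate 1 (0.417) or 2 (0.577), while leaving out a library gave 4.16 to 4.29. Dleu2 in sh7 ranged from 1.53 to 1.90 with a library left out. The cause was not tested. Genes called in sh7 against EV, 2 in the fit reported, were 1 with either pseudocount, 0 with no filter, 4 at 5 TPM, 1 under either scaling, 19 without trend, 7 with robust estimation, 0 with the block and 0 to 281 with a library left out. In sh5 against EV they were 0, but 180 with no filter and 0 to 59 with a library left out. In sh7 against sh5, 2 became 251 with no filter, 0 without trend, 4 with robust estimation, 0 with the block and 0 to 4 with a library left out. At an unadjusted p under 0.05 the fit reported had 1844, 1216 and 2632 genes. Median-of-ratios and quantile scaling moved the median of all genes by -0.10 and -0.11 in sh7 against EV and by -0.17 and -0.19 in sh7 against sh5. Whether same-numbered EV and sh7 libraries were made together is not given. Over genes, the deviations of EV replicate 1 and sh7 replicate 1 from their group means correlated at r = -0.0158. With so few libraries this cannot settle whether they were paired. A filter at 5 TPM leaves out Mir17hg and Mir100hg. With 1 to 2 libraries a group and unknown depth, a difference that misses the threshold does not show equality.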

Other observations

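Some long noncoding hosts in the RefSeq table were tested only because of their sh7 values, so their levels are given with no test. Lncppara, host of let-7b and let-7c-2, was at 1.55 and 0.399 TPM in EV, 0.213 TPM under sh5 and 21.1 and 34.8 TPM under sh7. E130102H24Rik, host of miR-101a, was listed at 0 and at 0.399 TPM in EV, at 0 in sh5 and at 5.67 and 10.9 TPM under sh7. Gm53058, host of miR-193b and miR-365-1, was at 0.466 TPM and listed at 0 in EV, at 0.0284 TPM under sh5 and at 2.75 and 2.82 TPM under sh7.

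Of 28 such hosts above 0 TPM in any library, the 4 transcripts left out, 11 (39.3%) lay above both EV libraries in both sh7 libraries and 8 (28.6%) lay below both in sh5. Among 2507 other long noncoding genes these shares were 23.5% and 25.7%. The difference between the shares was not tested.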
